A study of Mus musculus with 6 samples.

Results

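Acute phase reactants are plasma proteins whose hepatic output changes in inflammation. Their genes were followed as 10 symbols of the deposited table, out of 35970: the serum amyloid A genes Saa1, Saa2, Saa3 and Saa4, the pentraxin genes Crp and Apcs, haptoglobin (Hp), the orosomucoid genes Orm1 and Orm2, and lipocalin 2 (Lcn2). They were taken by gene symbol, with the TPM of all transcripts of a symbol summed (TPM, a share of the library's transcripts; such values allow for transcript length and have the same total in every library). All 10 had a mean TPM of at least 1 over the 6 libraries and were therefore tested. Each value below is a TPM unless another quantity is named.

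The groups were 3 mice given a CRISPRi plasmid with a guide against Neurl1b and 3 given the same kind of plasmid with a non-targeting guide. All 6 were Fah-/-;dCas9+ mice kept on nitisinone at 7.5 µg/mL, the drug that protects livers lacking Fah, an enzyme of tyrosine breakdown. Each received 10 µg of plasmid by hydrodynamic tail vein injection with an AAV8 virus carrying Cre behind the TBG promoter, which is active in hepatocytes, and nitisinone was withheld from then on. The plasmid carried the guide, Fah and ribosomal protein L10a fused to GFP, so that ribosomes of the hepatocytes repopulating the liver could be pulled down with anti-GFP (translating ribosome affinity purification) from 400 mg of tissue 4 weeks later. dCas9 is a Cas9 that binds DNA without cutting, and with a guide it lowers transcription of the targeted gene (CRISPR interference). The hydrodynamic injection and the liver injury were shared by both groups, and no uninjected or uninjured liver was analysed here. The sources used here give neither age nor sex.

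In the liver, the acute phase response is driven mainly by interleukin 6, interleukin 1 and tumour necrosis factor. Interleukin 6 acts through its receptor subunits Il6ra and Il6st and the transcription factor Stat3. Interleukin 1 acts through NF-kB, and factors of the C/EBP family bind many of the induced promoters. In mice, serum amyloid A and the pentraxin serum amyloid P, encoded by Apcs, are major reactants, while mouse C-reactive protein responds weakly. The libraries measure RNA on ribosomes of a bulk pull-down, in which fewer cells of a type and less RNA per cell cannot be told apart.

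The library of non-targeting mouse 2 stood apart from the other 5 for these genes, and the comparison of each reactant is therefore given with and without it. It had the highest TPM of the 6 libraries for 10 of 10 reactants, against 11.1% of the 10598 genes tested. Its value exceeded that of the next library by a factor of between 1.86 for Saa3 and 27.7 for Saa2. For 6 reactants the factor was at least 3, as it was for 39 of all tested genes (0.368%). The targeted gene Neurl1b, which encodes a ubiquitin ligase acting on Notch ligands, had 0.295, 0.351 and 0.307 in the CRISPRi mice, against 1.22, 0.897 and 0.688 in the non-targeting mice, without overlap. In this respect non-targeting mouse 2 lay between the other controls. Fah, which the plasmid carried, had 52.5 to 79.6 in the CRISPRi mice, against 52.9 to 71.4 in the non-targeting mice. Rpl10a had 869 to 1066, against 979 to 1084. Values by symbol do not separate plasmid RNA from that of the mouse's own genes. Each library had between 17813 and 18680 symbols above 0, but how many reads stand behind a value is unknown.

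Across the 10 reactants every log2 fold change of TPM + 1, as CRISPRi minus non-targeting, was below 0, as for 26.0% of all genes tested, and the median was -1.16 against 0.18 over all genes. None passed an adjusted p of 0.05 in limma, where 0.0189% of all genes passed. At an unadjusted p below 0.05 there were 4 reactants, all lower in the CRISPRi mice, against 3.19% of all genes in that direction; 0 were higher, against 10.1% of all genes. The same 4, Saa1, Saa2, Crp and Apcs, had CRISPRi values that all lay below the non-targeting values, which 4.57% of all genes did. Without non-targeting mouse 2 the median was -0.30 against 0.13 over all genes, and again none passed. The level of all genes was itself shifted. Scaling the libraries by median of ratios brought their median to -0.00126 and that of the reactants to -1.37.

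**Figure D1:**
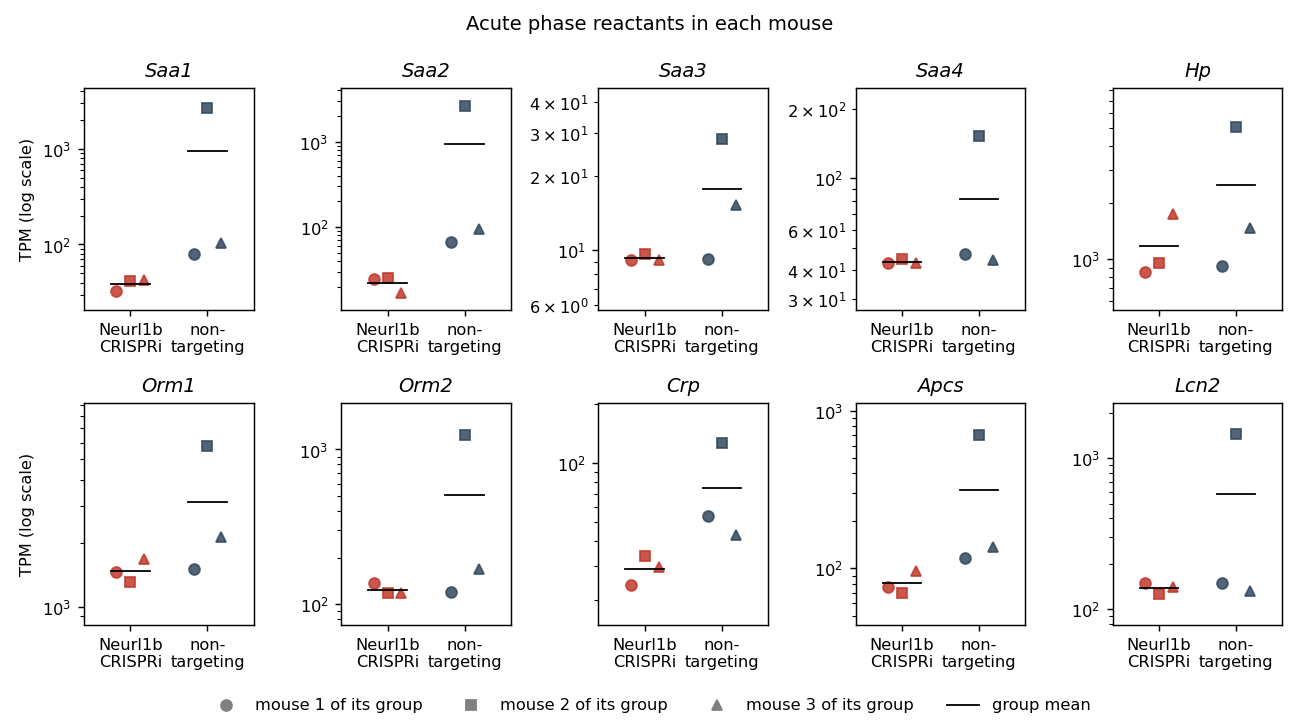
TPM of each acute phase reactant (log axis) in the 3 Neurl1b CRISPRi mice and, to their right, the 3 non-targeting mice, with symbols for the mouse number within its group and a line at the group mean. Non-targeting mouse 2 is the highest point in each of the 10 panels, and in the panels of Saa1, Saa2, Crp and Apcs all CRISPRi points lie below all non-targeting points.

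Serum amyloid A proteins are apolipoproteins of high density lipoprotein, and Saa1 and Saa2 are the forms that the inflamed liver secretes. Saa1 had 33.0, 42.0 and 42.2 in the CRISPRi mice, against 78.6, 2670.4 and 103 in the non-targeting mice. Saa2 had 24.7, 25.5 and 17.0 in the CRISPRi mice, against 67.0, 2631 and 94.9 in the non-targeting mice. For both genes all 3 CRISPRi values lay below the lowest control, and non-targeting mouse 2 was more than an order of magnitude above every other library. The Saa1 means were 39.1 ± 5.27 in CRISPRi and 951 ± 1489 in non-targeting livers (SD, n = 3 each), so the CRISPRi mean was 4.11% of the control mean. The log2 fold change of TPM + 1 was -2.82 for Saa1 (SE 1.13, limma adjusted p = 0.358) and -3.48 for Saa2 (SE 1.17, adjusted p = 0.344). With non-targeting mouse 2 left out the CRISPRi mean was 43.1% of the control mean for Saa1 and 27.7% for Saa2. These correspond to log2 fold changes of TPM + 1 of -1.19 for Saa1 (SE 0.20, limma adjusted p = 0.250) and -1.81 for Saa2 (SE 0.24, adjusted p = 0.136). An exact two-sided permutation p of 0.1 was found for each with all mice, the smallest that 3 against 3 allows.

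The paired genes lie side by side and share most of their promoter letters, which is why both are shown. The sequences are the 250 bases before the gene start, 5′ to 3′ on the gene's strand, from RefSeq on GRCm38.p6, a build other than the mm39 of the table. Capitals mark matches to the C/EBP letters TTGCNNAA and the NF-kB letters, GGG and CC with any 5 bases between, on either strand.
Saa1 (chr7:46742981-46743230, minus strand): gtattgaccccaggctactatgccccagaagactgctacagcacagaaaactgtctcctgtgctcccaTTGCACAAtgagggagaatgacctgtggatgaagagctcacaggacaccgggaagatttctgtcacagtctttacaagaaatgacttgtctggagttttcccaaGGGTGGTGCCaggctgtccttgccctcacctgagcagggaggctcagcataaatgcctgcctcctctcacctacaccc
Saa2 (chr7:46751583-46751832, plus strand): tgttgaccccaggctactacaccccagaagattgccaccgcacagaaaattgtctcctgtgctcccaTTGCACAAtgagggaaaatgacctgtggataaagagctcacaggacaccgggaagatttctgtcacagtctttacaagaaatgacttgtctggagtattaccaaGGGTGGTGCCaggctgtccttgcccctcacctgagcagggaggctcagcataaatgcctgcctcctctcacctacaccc
Of 251 aligned columns, 238 were identical (94.8%). In each, the C/EBP match read ttgcacaa on the gene's strand and the NF-kB match read gggtggtgcc, with no overlap between them. The C/EBP match began 182 bases before the start of Saa1 and 183 before that of Saa2. A promoter window was found for 8 of the 10 reactants, all but Hp and Orm1. Over the full 300 bases, which run 50 beyond the start, 6 of 8 held the C/EBP letters, against 10.8% of 32851 windows. The NF-kB letters were in 5 of 8, against 50.8% of all windows. The STAT letters TTCNNNGAA were in 1 of 8, that of Apcs, against 8.3%, and TATAAA on the gene's strand in 2 of 8, Crp and Orm2, against 8.32%. A match is only a run of letters and says nothing of binding in these livers.

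The most abundant transcripts of Saa1 and Saa2 were identical in 87.3% of aligned columns, so the division of reads between them is uncertain. The Saa1 to Saa2 ratio was 1.33, 1.65 and 2.48 in the CRISPRi mice, against 1.17, 1.01 and 1.08 in the non-targeting mice. With TPM of both genes pooled the log2 fold change was -3.11 (limma adjusted p = 0.343), which lies between the separate values. Within Saa1, the coding transcript Saa1-201 made up 98.3% to 98.9% of the gene's TPM in every library. Within Saa2, the coding transcript Saa2-203 ranged from 51.5% in non-targeting mouse 3 to 98.6% in CRISPRi mouse 3. A retained-intron transcript of Saa2 made up 0.777% to 1.39%, and its share in non-targeting mouse 2, 0.956%, lay within that range.

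Saa3 is a form made by many cell types, macrophages among them, and Saa4 is the constitutive form. Saa3 had 9.15, 9.69 and 9.17 in the CRISPRi mice, against 9.24, 28.4 and 15.3 in the non-targeting mice. Saa4 had 43.0, 44.6 and 43.2 in the CRISPRi mice, against 46.8, 153 and 44.1 in the non-targeting mice. For both, the CRISPRi values lay close together, and the lowest control lay inside their range. On the log2 scale the difference was -0.72 for Saa3 (SE 0.34, limma adjusted p = 0.394) and -0.63 for Saa4 (SE 0.42, adjusted p = 0.469). Leaving out non-targeting mouse 2 gave -0.32 (SE 0.24) and -0.06 (SE 0.16). On the GRCm38.p6 gene order, Saa3, Saa4, Saa1 and Saa2 follow in that order on chromosome 7. The long non-coding RNA gene Gm31882 lies between Saa3 and Saa4, and the pseudogene Saa-ps between Saa4 and Saa1.

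The pentraxins Crp and Apcs are pattern recognition proteins that bind phosphocholine, bacterial surfaces and nuclear debris. Crp had 24.0, 33.7 and 29.5 in the CRISPRi mice, against 54.1, 126 and 43.2 in the non-targeting mice. Apcs had 76.7, 70.1 and 96.7 in the CRISPRi mice, against 116, 696 and 136 in the non-targeting mice. Neither gene overlapped between groups, and this held also against the 2 other controls alone. The Crp means were 29.1 ± 4.88 in CRISPRi and 74.6 ± 45.3 in non-targeting livers (SD, n = 3 each). The log2 fold change was -1.18 for Crp (SE 0.36, limma adjusted p = 0.330) and -1.46 for Apcs (SE 0.59, adjusted p = 0.360). Against the 2 other controls it was -0.73 for Crp (SE 0.21, limma adjusted p = 0.595) and -0.64 for Apcs (SE 0.19, adjusted p = 0.621). The CRISPRi mean then was 59.8% of the control mean for Crp and 64.5% for Apcs. The exact two-sided permutation p was 0.1 for both with all mice.

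Haptoglobin binds free haemoglobin in plasma. Hp had 855, 959.8 and 1732 in the CRISPRi mice, against 918, 5109 and 1461.5 in the non-targeting mice. CRISPRi mouse 3 lay above both other controls, so the groups overlapped. On the log2 scale the difference was -0.76 (SE 0.57, limma adjusted p = 0.515), and -0.04 (SE 0.32) without non-targeting mouse 2. The exact two-sided permutation p was 0.6. The coding transcript Hp-201 made up 93.7% to 98.1% of the gene's TPM.

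Orosomucoids are acidic plasma glycoproteins of the lipocalin family that carry lipids and drugs. Orm1 was, with Hp, the most abundant of the 10 and had 1466, 1312 and 1679 in the CRISPRi mice, against 1508, 5767 and 2147 in the non-targeting mice. Orm2 had 137, 117 and 118 in the CRISPRi mice, against 120.0, 1245.5 and 168 in the non-targeting mice. In both, non-targeting mouse 1 lay among the CRISPRi values. The log2 fold change was -0.84 for Orm1 (SE 0.43, limma adjusted p = 0.404) and -1.24 for Orm2 (SE 0.74, adjusted p = 0.443). Against the 2 other controls these were -0.28 (SE 0.19) and -0.20 (SE 0.19).

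The related gene Orm3, which is not among the 10, was higher in every CRISPRi mouse. It had 116, 108 and 126 in the CRISPRi mice, against 94.5, 81.1 and 90.5 in the non-targeting mice, with no overlap and the lowest value in non-targeting mouse 2. This was 0.39 on the log2 scale (SE 0.15, limma adjusted p = 0.350), where the median over all genes was 0.18. Groups did not overlap, in either direction, for 17.1% of all genes. The Orm2 to Orm3 ratio was 1.17, 1.09 and 0.939 in the CRISPRi mice, against 1.27, 15.4 and 1.86 in the non-targeting mice. The promoters of this pair are shown because the genes differed in non-targeting mouse 2, with the C/EBP letters TTGCNNAA and the TATAAA letters in capitals.
Orm2 (chr4:63362199-63362448, plus strand): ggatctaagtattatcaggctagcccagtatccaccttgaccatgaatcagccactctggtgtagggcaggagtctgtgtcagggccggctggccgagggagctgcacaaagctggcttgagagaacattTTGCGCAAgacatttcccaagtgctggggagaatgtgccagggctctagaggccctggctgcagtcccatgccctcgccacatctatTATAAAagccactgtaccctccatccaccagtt
Orm3 (chr4:63355908-63356157, plus strand): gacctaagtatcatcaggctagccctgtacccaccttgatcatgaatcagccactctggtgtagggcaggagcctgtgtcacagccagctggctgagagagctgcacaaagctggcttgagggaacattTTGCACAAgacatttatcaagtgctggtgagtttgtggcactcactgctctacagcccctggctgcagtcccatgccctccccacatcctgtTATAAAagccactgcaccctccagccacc
They were identical in 218 of 255 aligned columns (85.5%). The C/EBP match read ttgcgcaa 120 bases before the start of Orm2, where it matches on both strands, and ttgcacaa 121 bases before that of Orm3. The transcripts of Orm2 and Orm3 were identical in 88% of aligned columns and those of Orm1 and Orm2 in 91%, so their levels are uncertain in the same way. With the TPM of all 3 orosomucoid genes pooled, the log2 fold change was -0.84 (limma adjusted p = 0.410).

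Lipocalin 2 binds bacterial siderophores and so withholds iron. It is made by hepatocytes in the acute phase and is also a granule protein of neutrophils. Lcn2 had 149, 126 and 140.2 in the CRISPRi mice, against 149, 1445 and 131 in the non-targeting mice. The value of non-targeting mouse 3 fell among the CRISPRi values, that of mouse 1 lay just above them, and mouse 2 was 9.67 times the next library. This gave a log2 fold change of -1.14 (SE 0.79, limma adjusted p = 0.481) with all mice and -0.02 (SE 0.16, adjusted p = 0.970) without that mouse. The exact two-sided permutation p was 0.4 with all mice. Its upstream sequence is shown, with the C/EBP and NF-kB matches in capitals, as that of the reactant with the largest factor over the next library after Saa1 and Saa2.
Lcn2 (chr2:32387740-32387989, minus strand): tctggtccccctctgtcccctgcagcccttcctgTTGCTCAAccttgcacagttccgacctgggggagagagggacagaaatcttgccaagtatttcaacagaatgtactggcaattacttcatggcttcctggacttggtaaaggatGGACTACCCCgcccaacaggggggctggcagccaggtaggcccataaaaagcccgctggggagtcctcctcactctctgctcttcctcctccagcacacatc
The C/EBP match lay 216 bases and the NF-kB match 102 bases before the start.

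**Figure D2:**
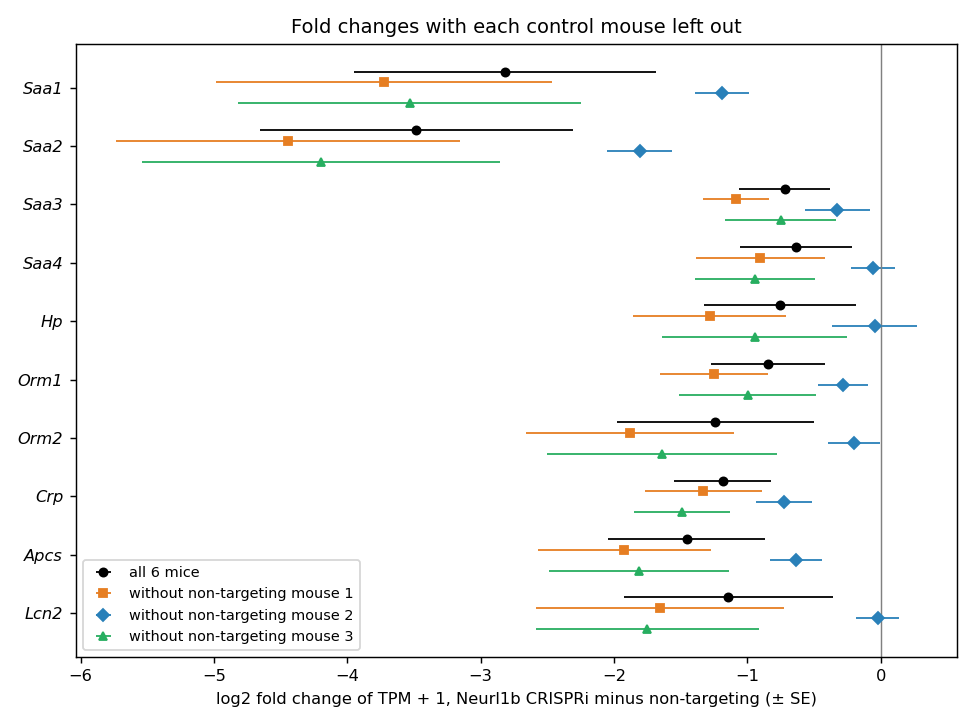
Log2 fold change of TPM + 1 (CRISPRi minus non-targeting, bars ± SE from limma) for each reactant, with all 6 mice and with each non-targeting mouse left out in turn. Without non-targeting mouse 2 the points move toward 0, to between -1.81 for Saa2 and -0.02 for Lcn2, while leaving out mouse 1 or 3 moves them away from 0.

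How far the comparison hung on single controls was read from the fits that left out each in turn. Without non-targeting mouse 1 the median log2 fold change of the reactants was -1.49 against 0.29 over all genes. Among the reactants Saa3 alone passed, with -1.09 (limma adjusted p = 0.0324), in a fit where 25.3% of all genes passed and 2.24% did so as lower. There 6 reactants were at an unadjusted p below 0.05 (4.52% of all genes as lower) and 7 did not overlap (8.08% as lower). When that fit was also scaled by median of ratios, all 10 lay lower without overlap, as did 25.1% of all genes, and Saa3 passed, against 2.74% of all genes as lower. Without non-targeting mouse 3 the median was -1.57 and none passed in limma, where 0.0% of all genes did. That fit had 4 reactants with an unadjusted p under 0.05 (3.48% of all genes as lower) and 6 without overlap (8.84% as lower). Leaving out non-targeting mouse 2, none of the reactants passed in limma, and 0.0282% of all genes did. Reactants with an unadjusted p under 0.05 were again 4, against 2.46% of all genes as lower. The groups did not overlap for the same 4 genes as before, against 6.58% of all genes as lower. Weighting each library by its fit to the group means gave non-targeting mouse 1 a weight of 0.164 and CRISPRi mouse 2 a weight of 5.6. Non-targeting mice 2 and 3 had 0.823 and 0.824, so mouse 2 was not weighted down against mouse 3. With those weights 6 reactants passed as lower in limma, where 20.9% of all genes passed and 2.33% as lower, with log2 fold changes between -0.96 for Saa3 and -4.06 for Saa2.

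The mean of the CRISPRi mice was also set against each control alone, as values with no test. Against non-targeting mouse 1 the log2 differences ran from -1.56 for Saa2 to 0.29 for Hp, and 3 of 10 were above 0. Against non-targeting mouse 3 they ran from -2.06 for Saa2 to 0.07 for Lcn2, and 1 was above 0. Against non-targeting mouse 2 they ran from -6.83 for Saa2 to -1.51 for Saa3, and 0 were above 0. The CRISPRi mean lay below each of the controls for Saa1, Saa2, Saa4, Orm1, Crp and Apcs. For Crp the differences were -0.89, -2.10 and -0.57 against mice 1, 2 and 3, and for Saa4 -0.10, -1.79 and -0.017.

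**Figure D3:**
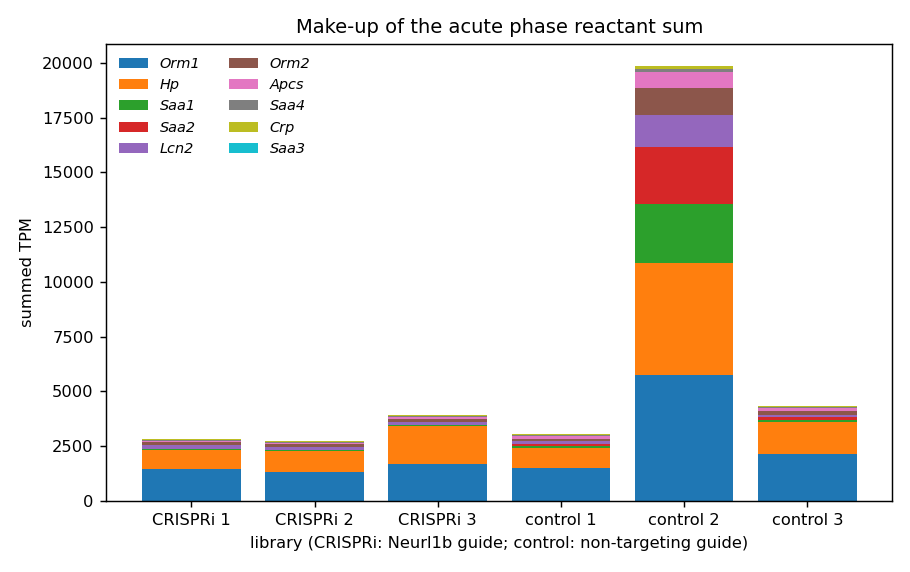
Summed TPM of the 10 reactants in each library, stacked by gene, with the 3 Neurl1b CRISPRi libraries left of the 3 non-targeting (control) libraries. The bar of control 2 reaches 19872, and the other 5 lie between 2740.0 and 4344.

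Together the reactants took 0.282%, 0.274% and 0.391% of the CRISPRi libraries, against 0.307%, 1.99% and 0.434% of the non-targeting libraries. The summed TPM averaged 3155 ± 653 in CRISPRi and 9095 ± 9355 in non-targeting livers (SD, n = 3 each). The log2 ratio of the means was -1.53, and -0.23 without non-targeting mouse 2. The make-up of the sum differed between libraries. Saa1 and Saa2 together held 2.05%, 2.46% and 1.52% of it in the CRISPRi mice, against 4.75%, 26.7% and 4.55% in the non-targeting mice. Hp and Orm1 held 82.4%, 82.9% and 87.3% in the CRISPRi mice, against 79.1%, 54.7% and 83.1% in the non-targeting mice. By level within its library, Saa1 ranked 45 of all symbols in non-targeting mouse 2, and between 1192 and 2913 in the other 5.

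Other positive acute phase proteins were read from a list of 32 genes, of which 31 were tested. Their median log2 fold change was -0.57, and -0.21 without non-targeting mouse 2, with 25 below 0 (26.0% of all genes), and none passed in limma. At an unadjusted p below 0.05 there were 11 lower, against 3.19% of all genes, and 3 higher, against 10.1%, so that the higher ones were near the share of all genes. Non-targeting mouse 2 was the highest library for 24 of the 31 and the lowest for 6. Fibrinogen gamma (Fgg), a clotting protein, had 488, 551 and 632 in the CRISPRi mice, against 883, 2654 and 713 in the non-targeting mice. Itih4, an inter-alpha-trypsin inhibitor heavy chain gene, had 109, 133 and 196 in the CRISPRi mice, against 210.5, 1470.0 and 379 in the non-targeting mice. The list members with the smallest p were Serpina3k, the complement gene C9 and the hormone gene Fgf21, with log2 fold changes of -0.63, -1.76 and 1.04 (limma adjusted p = 0.323, 0.269 and 0.310).

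The iron hormone hepcidin, encoded by Hamp, is itself induced by interleukin 6. Hamp had 7141, 8254 and 7588 in the CRISPRi mice, against 9579, 685 and 6575 in the non-targeting mice, so that non-targeting mouse 2 was here far below the rest. Mt1, a metal-binding metallothionein gene, was highest there, with 1673, 1077 and 1651 in the CRISPRi mice, against 2266, 10547 and 1961 in the non-targeting mice. Fgg, Itih4, Hamp and Mt1 were picked out after their values were seen.

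**Figure D4:**
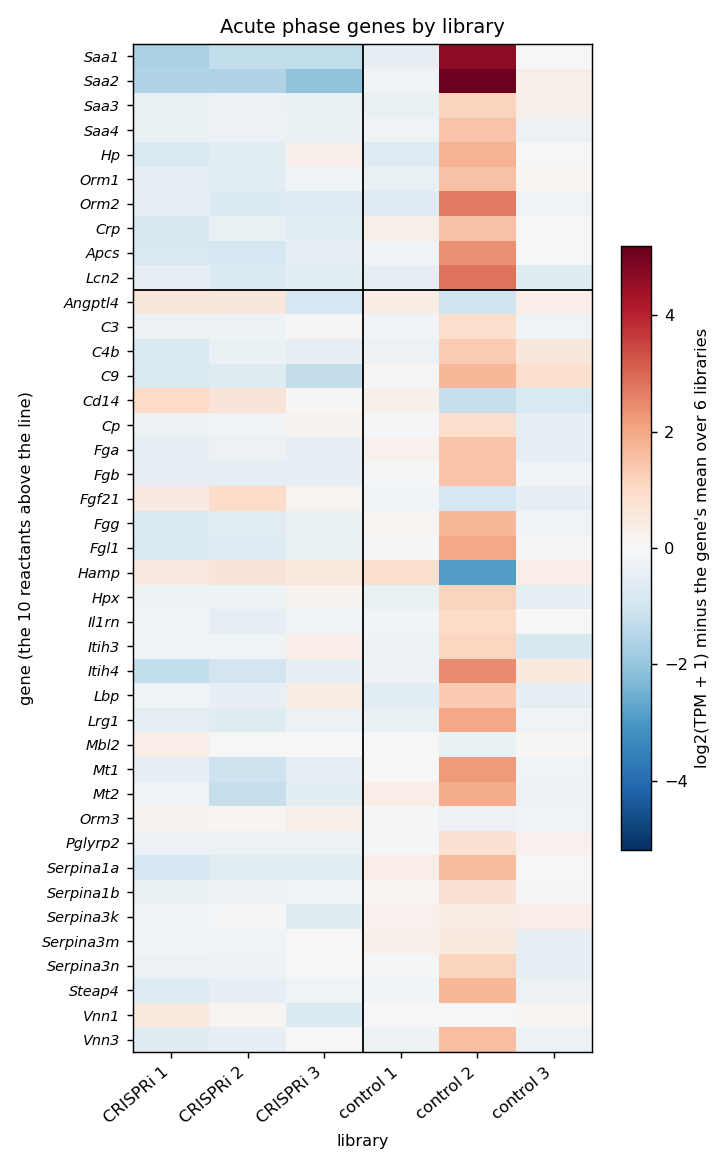
Log2(TPM + 1) minus the gene's mean over the 6 libraries for the 10 reactants (above the line) and 31 other acute phase genes, with the CRISPRi libraries left of the non-targeting (control) libraries. The column of control 2 is the highest for each of the 10 reactants and for 24 of the 31, while Hamp is lowest there.

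Negative acute phase proteins, whose output falls in inflammation, were also mostly lower in the CRISPRi mice. Of 14 genes, 13 had a log2 fold change below 0 (26.0% of all genes), the median was -0.46 (-0.23 without non-targeting mouse 2), and none passed in limma. At an unadjusted p below 0.05 there were 5 lower, against 3.19% of all genes, and 0 higher, against 10.1%. Non-targeting mouse 2 was the highest library for 11 of the 14. Albumin (Alb) had 11518, 12521 and 16044 in the CRISPRi mice, against 16974, 31253 and 12742 in the non-targeting mice. Those with the smallest p were the corticosteroid carrier gene Serpina6, Igfals and Cyp2f2, with log2 fold changes of -0.81, -0.87 and -1.15, each lower without overlap. Relative to albumin, Hp was 0.0742, 0.0767 and 0.108 in the CRISPRi mice, against 0.0541, 0.163 and 0.115 in the non-targeting mice.

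Signalling genes of the response had a median log2 fold change of 0.15, near the 0.18 of all genes. Of 38 tested none passed in limma, and 10 were below 0, near the 26.0% of all genes. With an unadjusted p under 0.05 there were 2 lower, against 3.19% of all genes, and 1 higher, against 10.1%. The interleukin 6 receptor gene Il6ra had 1.53, 1.16 and 1.89 in the CRISPRi mice, against 2.40, 4.04 and 1.69 in the non-targeting mice. Its partner Il6st had 9.18, 7.999 and 5.26 in the CRISPRi mice, against 5.66, 4.33 and 5.11 in the non-targeting mice. Stat3 had 13.7, 13.8 and 15.4 in the CRISPRi mice, against 18.6, 21.8 and 9.89 in the non-targeting mice. Socs3, the feedback inhibitor that Stat3 induces, had 3.49, 3.14 and 3.54 in the CRISPRi mice, against 5.02, 3.92 and 1.27 in the non-targeting mice. None of these 4 separated the groups, and only Il6ra and Stat3 were highest in non-targeting mouse 2.

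The C/EBP factors include the products of Cebpb and Cebpd. Cebpb had 215, 219.9 and 218 in the CRISPRi mice, against 239.7, 182 and 188 in the non-targeting mice. Cebpd, which interleukin 6 induces, had 3.445, 3.62 and 3.31 in the CRISPRi mice, against 2.35, 1.44 and 2.26 in the non-targeting mice, lowest in the mouse with the highest reactants. On the log2 scale the difference was 0.58 (limma adjusted p = 0.335). On the interleukin 1 side, the co-receptor gene Il1rap had 6.37, 8.50 and 6.31 in the CRISPRi mice, against 11.2, 21.5 and 14.8 in the non-targeting mice, with no overlap (log2 fold change -1.03, limma adjusted p = 0.310). The receptor gene Il1r1 had a log2 fold change of 0.16, Nfkb1 one of 0.18 and Hnf4a, a hepatocyte master regulator, one of 0.06. Onecut1, a liver transcription factor gene, had 0.677, 0.659 and 0.524 in the CRISPRi mice, against 0.981, 2.08 and 1.99 in the non-targeting mice.

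Receptors and carriers of the reactants were 13 tested genes of 20, none of which passed in limma, with a median log2 fold change of 0.16. Those with the smallest p were Cd163, the macrophage receptor for haptoglobin with haemoglobin, the immunoglobulin receptor gene Fcgr1 and the haem oxygenase gene Hmox1, with log2 fold changes of 0.37, 0.59 and 1.87. Hmox1 had 154, 154 and 121 in the CRISPRi mice, against 125, 13.5 and 31.6 in the non-targeting mice. The haemoglobin gene Hbb-bs, a red cell product, had 452, 139 and 329 in the CRISPRi mice, against 261, 1011 and 319.6 in the non-targeting mice.

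Markers of other cells were read because Saa3 and Lcn2 are also made outside hepatocytes. The summed TPM of 13 neutrophil markers was 4.61, 21.6 and 15.1 in the CRISPRi mice, against 9.03, 59.5 and 10.4 in the non-targeting mice, and 8 of the 13 were highest in non-targeting mouse 2. Most of that sum was S100a8 and S100a9, at 27.1 and 20.7 there, the only 2 of the 13 that were tested. The defining granule genes Mpo and Elane had 1.34 and 0.907. The markers not highest there, Ly6g, Csf3r, Ltf, Mmp8 and Mmp9, were highest in a CRISPRi mouse, and Ly6g was at 0 in non-targeting mouse 2. The sum of 14 Kupffer cell and macrophage markers was 196, 133 and 173 in the CRISPRi mice, against 89.1, 115 and 164 in the non-targeting mice, with 0 of 14 highest in non-targeting mouse 2. Its 10 tested genes were all above 0, where 26.0% of all genes were below, and none passed in limma, those with the smallest p being Csf1r, Vsig4 and Cd68 at 0.85, 0.67 and 0.69. The 14 stellate cell and endothelial markers summed to 66.6, 66.1 and 47.45 in the CRISPRi mice, against 33.3, 28.1 and 47.7 in the non-targeting mice. None of the 9 tested passed in limma. Those with the smallest p, the stellate cell genes Reln, Dcn and Lrat, had log2 fold changes of 0.90, 1.04 and 0.58. Only the endothelial gene Pecam1 was below 0, at -0.38. It had 4.77, 6.29 and 5.28 in the CRISPRi mice, against 6.68, 6.97 and 8.49 in the non-targeting mice, without overlap. The 7 biliary markers summed to 24.7, 23.8 and 17.0 in the CRISPRi mice, against 26.5, 13.7 and 25.6 in the non-targeting mice. Lymphocyte markers summed to at most 2.18 in any library, and adipocyte and lung markers to at most 0.309. The hepatocyte markers were present in all libraries, their sum being 40715, 45322 and 57783 in the CRISPRi mice, against 55655, 102580.0 and 45074 in the non-targeting mice. Of the 12, 7 were highest in non-targeting mouse 2, while 2, Ass1 and Asgr1, were lowest there. Most of the sum there was Alb and Trf, at 31253 and 33260. Both genes, with Ttr, Apoa1 and Ahsg, are also in the list of negative acute phase proteins.

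After the values were seen, 16 pancreatic acinar markers were added, because digestive enzyme genes stood out in non-targeting mouse 2. Without Cela1, which had 83.7 to 112 in every library, the sum of 15 was 3.91, 3.66 and 3.15 in the CRISPRi mice, against 6.15, 170 and 1.70 in the non-targeting mice, and 15 of 15 were highest in non-targeting mouse 2. Of the 39 genes at least 3 times above the next library there, 6 were reactants, 8 other acute phase proteins and 8 acinar markers. The acinar counts follow largely from how that list was chosen. Prtn3, the neutrophil proteinase 3 gene, had 0.492, 1.21 and 1.27 in the CRISPRi mice, against 2.18, 265 and 2.29 in the non-targeting mice. It belongs to a list of 4 neutrophil granule genes also added after the values were seen. That list summed to 268 in non-targeting mouse 2, nearly all of it Prtn3. The part of neutrophil, pancreatic or red cell RNA in the values of the reactants was not tested.

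**Figure D5:**
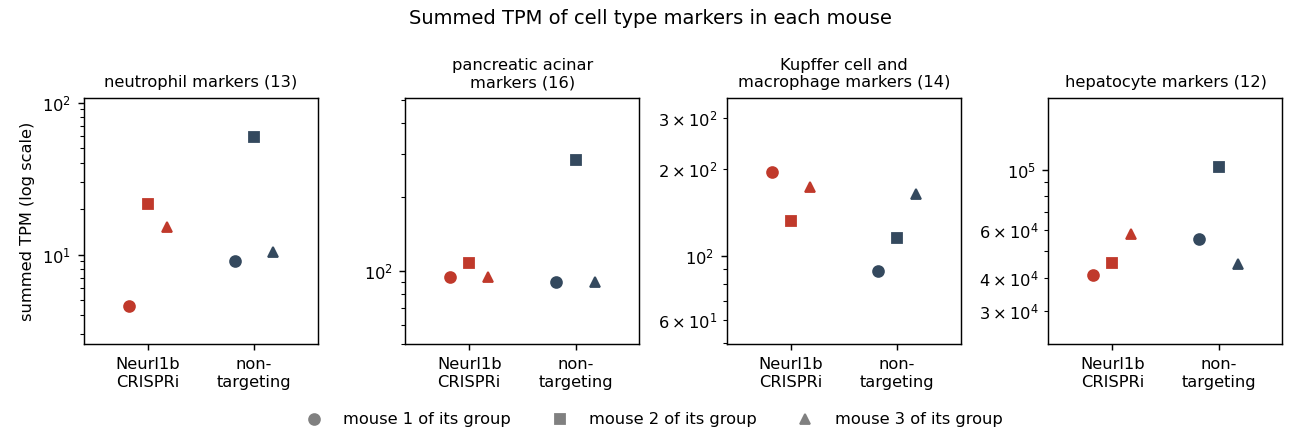
Summed TPM (log axis) of marker lists in the 3 Neurl1b CRISPRi mice and, to their right, the 3 non-targeting mice, with symbols for the mouse number within its group. The neutrophil, pancreatic acinar and hepatocyte sums are highest in non-targeting mouse 2, at 59.5, 282 and 102580.0, and the macrophage sum is not. Of the 12 hepatocyte markers, 7 are highest there and 2 lowest.

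Genes whose pattern over the 6 libraries was most like that of Saa1 or Hp were ranked among 5115 genes averaging 10 TPM or more. The measure was the root mean square difference of their centred log2(TPM + 1). The reactants themselves and predicted genes (named Gm or Rik) were left out, so the nearest genes given are among the others. Nearest to Saa1 were Prtn3 at 0.51, the antitrypsin gene Serpina1e at 0.56, the complement gene C8a at 0.97, Itih4 at 1.00 and the cytochrome gene Cyp3a41a at 1.01. Nearest to Hp were Serpina11 at 0.26, Vnn3 at 0.27, Lrg1 and Ifitm2 at 0.31 and Steap4 at 0.32. All 10 genes had their highest value in non-targeting mouse 2, but this follows from the choice. They were picked for likeness to Saa1 or Hp, which were themselves highest there. Prtn3 and Serpina1e averaged 10 TPM or more only through that library. Serpina1e had 0.784, 1.15 and 0.515 in the CRISPRi mice, against 2.53, 245 and 1.75 in the non-targeting mice, and its near-identical Serpina1 relatives make its level uncertain. Lrg1, which encodes a leucine-rich glycoprotein of inflamed plasma, had 197, 174 and 223 in the CRISPRi mice, against 208, 1113 and 232 in the non-targeting mice.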

How the data were processed

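The authors deposited TPM for 117486 transcripts with a gene symbol beside each. They were made with kallisto on build mm39, per the submitters' processing notes; kallisto's version, transcript set and filters: not given in the sources used here. Columns add up to 999999.8 to 1000000.2. Since TPM hold no depth, no counting interval is given. kallisto divides reads between similar transcripts by estimation. Groups and mouse numbers come from the sample titles. The titles name separate mice, so p-values measure the spread between mice.

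Transcripts were summed by symbol, leaving out 168 without one. Symbols averaging 1 TPM or more, 10598 in all, entered limma 3.58.1 (R 4.3.3) as log2(TPM + 1) (trended empirical Bayes, two-sided, Benjamini-Hochberg over all of them, threshold 0.05, no covariate). Fold changes on this scale understate low genes. Neurl1b, below the filter, is given as values only. For single genes an exact two-sided permutation p is given. limma was tested on simulated data.

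The reactants and lists were chosen with earlier results of these data known. Named genes are the reactants, preset regulators and the 3 tested genes of smallest unadjusted p in a list (not all are printed). The 5 genes most like each of Saa1 and Hp, outside the reactants and predicted genes, are also named. Fgg, Itih4, Hamp, Mt1, Hbb-bs, Prtn3, S100a8, S100a9, Mpo, Elane and the acinar and neutrophil granule lists were chosen after their values were seen. So were the other neutrophil, hepatocyte and endothelial markers named. The alternatives were other pseudocounts, filters, scalings, priors and weights, a replicate block, each mouse left out, paralogs pooled, the most abundant transcript, and other thresholds. Promoters come from RefSeq (GRCm38.p6), and transcript types and similarity from GENCODE vM21, which holds all 24 transcripts of the reactants; sequences were aligned globally with Biopython 1.88.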

Additional observations from a re-analysis of the deposited data

How the results depend on the processing

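Of 240 log2 fold changes of reactants under 24 alternatives, 240 were below 0 as in the reported fit, where 26.0% of all genes were below 0. With paralogs pooled, Saa1 and Saa2 entered with a shared value, as did Orm1 and Orm2, theirs including Orm3. Of the 240, 8 came to pass the adjusted threshold. These were Saa1, Saa2, Saa3, Orm1, Crp and Apcs with array weights, and Saa3 in the 2 fits without non-targeting mouse 1. The number of reactants called was 0 in the reported fit (4 at an unadjusted p below 0.05 in limma), 6 with array weights, and 0 to 1 with a mouse left out, the 1 being Saa3 without non-targeting mouse 1, also with median-of-ratios scaling. Reactants lower without overlap numbered 4 in the reported fit (4.57% of all genes). They numbered 5 with median-of-ratios scaling, quantile normalization or TPM rescaled without the 10 most abundant genes. With near-identical paralogs pooled they numbered 3 of 8. The share of all genes was not taken in those fits, so these counts are not read as results about the reactants. Leaving out a CRISPRi mouse gave 5 or 6, again with no share of all genes taken, so these are not read as results either. Without non-targeting mouse 1, 2 or 3 there were 7, 4 and 6 (8.08%, 6.58% and 8.84% of all genes). There were 10 when the fit without non-targeting mouse 1 was also scaled by median of ratios (25.1% of all genes). The log2 ratio of the summed TPM ranged from -1.94 to -0.23 with a mouse left out, the last without non-targeting mouse 2. The median log2 fold change of the reactants ranged from -1.57 to -0.30 with a mouse left out, and was -1.84 without non-targeting mouse 1 under median-of-ratios scaling. Without non-targeting mouse 2, that scaling gave -0.47 for Saa3, -0.44 for Orm1, -0.35 for Orm2, -0.21 for Saa4, -0.20 for Hp and -0.18 for Lcn2, against -0.32, -0.28, -0.20, -0.06, -0.04 and -0.02 unscaled, and a median of -0.46.

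The number of all genes called was 2, and 0 with a pseudocount of 5, without the filter or with quantile normalization, 1 with a mean TPM of at least 5, and 2210 with array weights. It ranged from 0 to 2673 with a mouse left out, 2673 being without non-targeting mouse 1, and was 473 when median-of-ratios scaling was added to that. Of the 95 tested genes in the 4 lists of other, negative, signalling and receptor genes, 0 were called. Array weights called 18 of them (20.9% of all genes), leaving out a mouse 0 to 17, the 17 without non-targeting mouse 1 (25.3% of all genes), and median-of-ratios scaling in that last fit 10 (4.48% of all genes). The cause of these moves was not tested. With the mouse number as a replicate block, 0 reactants and 2 genes passed, with limma adjusted p of 0.180 for Saa2 and 0.466 for Hp. Deviations from the group means correlated across genes at 0.0614, -0.096 and -0.277 for same-numbered mice 1, 2 and 3. For differently numbered mice the correlations ran from -0.17 to 0.222. The titles give same-numbered mice nothing in common but the number. With 3 mice a group, such correlations cannot decide whether they shared more. With 3 mice a group and no depth in the TPM, the precision of low values such as Saa3 is unknown.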
